A study of Mus musculus with 2 samples.

Results

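The receptor genes Vmn1r85, Prokr2, Gpr83 and Sstr2, which lead groups of Calca-rich neurons, were followed through the trigeminal ganglion (TG) of the mouse. They are 4 of the 39098 genes listed over both libraries, and all 4 were listed in both. They had been picked because they led groups of neurons rich in Calca, the gene of calcitonin gene-related peptide. A higher level in such neurons is therefore how they were chosen and is given here as a description. Their concentration in particular clusters and their separation in pairs may follow from the same choice and are also descriptions. Right TGs came from male C57BL/6 mice of 5 to 8 weeks. In the CFA group, 20 µL of complete Freund's adjuvant (CFA), which causes lasting inflammation, had been injected into the right vibrissal pad 7 days before the ganglia were taken. The sample labels describe the control mice as untreated, whereas the methods describe a saline injection of the same volume. The study used 6 mice per group, how many of them a library holds is not given, and each condition has 1 single-cell library.

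All 4 genes encode G protein-coupled receptors. Vmn1r85 belongs to the V1R family, which is best known from the vomeronasal organ. Prokr2 is a receptor for prokineticins, secreted peptides that sensitise nociceptors. Gpr83 has been described as a receptor for peptides cut from proSAAS, the product of Pcsk1n. Sstr2 is a somatostatin receptor that couples to inhibitory G proteins and dampens excitability and peptide release. Peptidergic (PEP) nociceptors are small-diameter pain-sensing neurons that contain calcitonin gene-related peptide and substance P, the product of Tac1.

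Cells were kept when they had at least 150 genes and at most 25% of their counts from mitochondrial genes, which gave 6695 control and 3661 CFA cells with 858 and 440 neurons among them. A neuron was called Calca-high when Calca made up at least 5000 CPM of its counts, where a count is a unique molecular identifier (UMI), the tag of 1 captured transcript, and CPM is the number of UMIs scaled to a total of 1000000. That was met by 390 control neurons (45.5%, exact 95% interval 42.1 to 48.9%) and by 212 CFA neurons (48.2%, 43.4 to 53.0%). The Calca-high neurons had a median of 37470 UMIs for the control and of 31518.5 UMIs for the CFA library, against 1299 and 1091 UMIs in non-neuronal cells. Genes of peptidergic neurons were higher in them than in the other neurons. Tac1 stood at 6502 and 5347 CPM in Calca-high against 833 and 750 CPM in other neurons (control and CFA in each pair), and Trpv1 at 551 and 481 CPM against 75.4 and 88.7 CPM. The libraries shared 27 cell barcodes. All intervals below are at 95% and cover counting error only, not the variation between animals. Those of CPM and of log2 ratios treat UMIs as independent, so they also leave out the spread between neurons.

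On GRCm38 with the GENCODE M21 annotation, the 4 protein-coding genes lie apart on different chromosomes. Vmn1r85 is at chr7:13083313-13095173 on the minus strand, Prokr2 at chr2:132337733-132385447 on the minus strand, Gpr83 at chr9:14860210-14870789 on the plus strand and Sstr2 at chr11:113619342-113626028 on the plus strand. Sstr2 overlaps Slc39a11 on the opposite strand, and Vmn1r85 overlaps Gm4270 and Gm45436 on the opposite strand. Whether counting used the strand is not given in the sources used here. Slc39a11 was found in 125 of the 182 control Calca-high neurons with Sstr2 and in 106 of the 208 without it. In the CFA library these were 69 of 105 and 62 of 107, a smaller gap. Gm4270 had 1 UMI in the control and 0 UMIs in the CFA Calca-high neurons.

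Sstr2 was less frequent in neurons with Vmn1r85 than in neurons without it in both libraries (values below), so the sequences around their RefSeq transcription starts are shown. Each runs 5′ to 3′ on the gene's strand, from 250 bases before the start to 50 bases after it, from RefSeq on GRCm38.p6. Capitals mark matches on either strand to 5 short motifs, which are the TATA box TATAAA, a RUNX site TGTGGT, the core of the cAMP response element TGACG, an E box CAGCTG and a GC box GGGCGG.
Vmn1r85, chr7:13085166-13085465, minus strand: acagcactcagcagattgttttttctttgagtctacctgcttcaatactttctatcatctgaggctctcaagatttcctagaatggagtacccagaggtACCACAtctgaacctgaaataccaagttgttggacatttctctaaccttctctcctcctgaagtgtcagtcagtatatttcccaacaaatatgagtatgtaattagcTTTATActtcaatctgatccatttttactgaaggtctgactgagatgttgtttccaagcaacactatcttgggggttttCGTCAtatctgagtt
Sstr2, chr11:113619077-113619376, plus strand: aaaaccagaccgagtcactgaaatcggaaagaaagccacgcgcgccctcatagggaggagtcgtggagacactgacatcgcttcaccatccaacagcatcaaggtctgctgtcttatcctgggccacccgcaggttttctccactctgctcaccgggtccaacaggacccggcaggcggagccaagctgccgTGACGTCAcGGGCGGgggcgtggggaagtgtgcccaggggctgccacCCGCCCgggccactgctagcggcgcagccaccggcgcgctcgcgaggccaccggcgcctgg
The sequence of Vmn1r85 holds 1 CpG at 39% GC, and that of Sstr2 holds 27 CpGs at 66.3% GC, against medians of 7 CpGs at 52.7% GC over 32851 mouse promoters of this length. Vmn1r85 had 3 matches, a RUNX site, a TATA box and, after the start, a cAMP core, all on the opposite strand. Sstr2 had 4, consisting of a pair of overlapping cAMP cores and a pair of GC boxes. The TATA box letters occur in 13.6%, the RUNX letters in 16.8%, the cAMP core in 20.8%, the E box in 16.3% and the GC box in 35.7% of all these promoters. The RefSeq start of Vmn1r85 is also that of 1 of its 3 GENCODE M21 transcripts, but the other 2 start 9958 bases upstream, so the window shown lies inside the gene. The RefSeq start of Sstr2 lies 15 bases before its first GENCODE start, and no GENCODE transcript of the gene covers it. Which start the neurons use was not measured.

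Sstr2 was found in more Calca-high neurons than the other 3 receptors. At least 1 UMI was counted in 182 of 390 control neurons (46.7%, 41.6 to 51.8%) and in 105 of 212 CFA neurons (49.5%, 42.6 to 56.5%). Vmn1r85 was found in 101 control (25.9%, 21.6 to 30.5%) and 47 CFA neurons (22.2%, 16.8 to 28.4%). Gpr83 was found in 92 control (23.6%, 19.5 to 28.1%) and 35 CFA neurons (16.5%, 11.8 to 22.2%). Prokr2 was found in 73 control (18.7%, 14.97 to 22.9%) and 46 CFA neurons (21.7%, 16.3 to 27.9%). For each of the 4 receptors the intervals of the libraries overlapped, which does not show that the shares were equal.

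The receptors differed in how their UMIs were spread over the neurons that had them. Vmn1r85 had a median of 6 UMIs in positive Calca-high neurons of either library with a maximum of 59 and 62, and 34 control neurons held 10 or more. Sstr2 had a median of 3 UMIs, with a maximum of 22 and 37. Gpr83 had a median of 3 UMIs, with a maximum of 36 and 16. Prokr2 had a median of 2 UMIs, with a maximum of 30 and 52, and 3 neurons of each library held 10 or more. Thus Vmn1r85 was found at 3 or more UMIs in 72 of its 101 control neurons, but Prokr2 in 32 of its 73. A single UMI was all that was seen in 21.8% of the control neurons with Vmn1r85, 27.5% of those with Sstr2, 31.5% of those with Prokr2 and 33.7% of those with Gpr83.

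**Figure D1:**
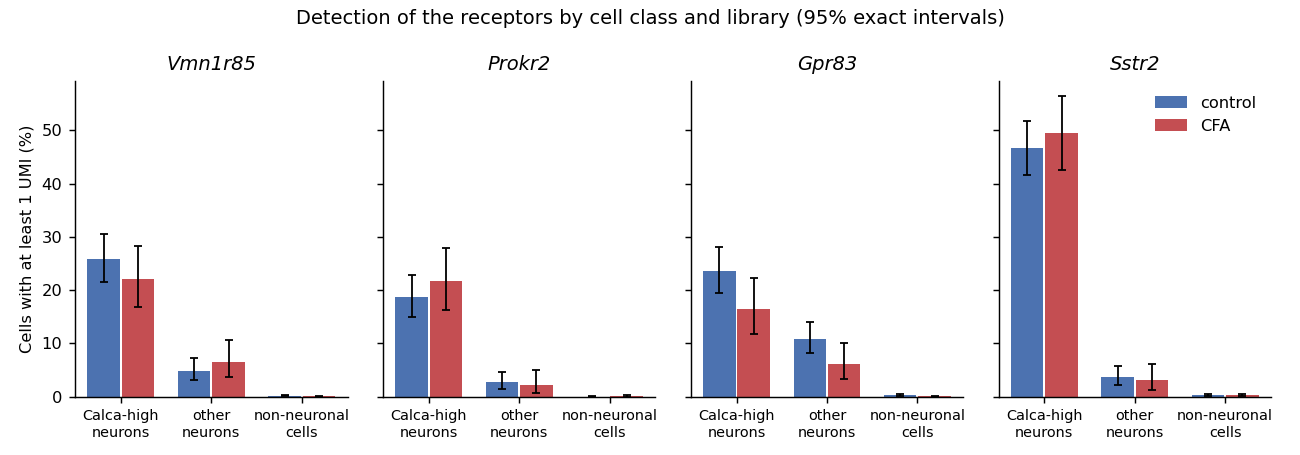
Share of cells with at least 1 UMI of each receptor (y axis, percent) in Calca-high neurons, other neurons and non-neuronal cells, with bars for the control (blue) and CFA (red) library and exact 95% intervals. Shares in Calca-high neurons run from 16.5% (Gpr83, CFA) to 49.5% (Sstr2, CFA), and those in non-neuronal cells are at most 0.326%, at their lower depth.

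Outside the Calca-high neurons the receptors were sparse. Of the other neurons, Gpr83 was found in 10.9% of control and 6.14% of CFA neurons, Vmn1r85 in 4.91% and 6.58%, Sstr2 in 3.63% and 3.07% and Prokr2 in 2.78% and 2.19%. The median over the positive control neurons was 1 UMI for each receptor, and over the CFA neurons with Vmn1r85 it was 3 UMIs. In non-neuronal cells the shares lay between 0.0343% (Prokr2) and 0.326% (Sstr2) for the control and between 0.0621% (Vmn1r85 and Gpr83) and 0.31% (Sstr2) for CFA, at their lower depth. Per UMI, Sstr2 was no higher in other neurons than in non-neuronal cells. It stood at 1.05 against 2.31 CPM in the control and at 1.59 against 2.07 CPM in the CFA library, with overlapping intervals. The other receptors had higher CPM in other neurons, but intervals overlapped for Gpr83 in both libraries and for Prokr2 in the CFA library. The non-neuronal class includes a cluster of 210 control and 67 CFA cells that was named for myelinating Schwann cells but led by neuronal genes such as Snhg11 and Scn11a. Without it the shares lay between 0.0355% (Prokr2) and 0.302% (Sstr2) for the control and between 0.0317% (Gpr83) and 0.254% (Sstr2) for CFA. Where the UMIs in non-neuronal cells came from was not tested. At equal depth, with each neuron thinned to 5000 UMIs, Sstr2 was found in 17.2% of control and 23.1% of CFA Calca-high neurons against 0.983% and 1.01% of other neurons. Vmn1r85 was then found in 15.6% and 14.9% against 1.23% and 3.03%, Gpr83 in 10.9% and 7.21% against 1.72% and 2.02%, and Prokr2 in 4.43% and 6.73% against 0.983% and 0.505%. With all cells thinned to 500 UMIs, 10 of 390 control Calca-high neurons kept Sstr2 (2.56%) and 6 of 5732 non-neuronal cells did (0.105%). Vmn1r85 was kept in 11 and 3 of these cells, Gpr83 in 3 and 7 and Prokr2 in 1 and 0, and the intervals of Gpr83 and Prokr2 overlapped. Of 212 CFA Calca-high neurons and 3160 non-neuronal cells, 13 and 4 kept Sstr2 and 5 and 0 kept Prokr2. Vmn1r85 was kept in 2 and 1 and Gpr83 in 1 and 0 of these, with overlapping intervals.

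Neurons just under the Calca limit also had receptors. Of the 13 control neurons between 4000 and 5000 CPM of Calca, 8 had at least 1 of the receptors, as did 8 of the 10 neurons between 5000 and 6000 CPM. In the CFA library these were 6 of 13 and 14 of 17 neurons.

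At full depth and a detection limit of 1 UMI, exactly 1 of the 4 receptors was the commonest number in Calca-high neurons. At least 1 receptor was found in 320 of 390 control neurons (82.1%, 77.9 to 85.7%) and in 174 of 212 CFA neurons (82.1%, 76.2 to 87.0%). Exactly 1 was found in 210 control (53.8%) and 125 CFA neurons (59.0%), and 2 or more in 110 control (28.2%, 23.8 to 33.0%) and 49 CFA neurons (23.1%, 17.6 to 29.4%). In 18 control and 10 CFA neurons 3 receptors were found, and no neuron had all 4, which allows a share of up to 0.769% and 1.42% (3 neurons of each total). Neurons with 2 or more receptors were deeper, with a median of 46298.5 UMIs in the control against 34382.5 UMIs in neurons with 1, and of 37734 against 30590 UMIs in the CFA library. The counts depended on depth and limit. With neurons thinned to 5000 UMIs, none of the receptors was left in 55.2% of control and 51.9% of CFA neurons, exactly 1 in 41.4% and 44.7%, and 2 or more in 3.39% and 3.37%. At a limit of 3 UMIs exactly 1 was found in 49.7% and 49.5%. Of the other neurons, 97 of 468 control (20.7%) and 39 of 228 CFA neurons (17.1%) had any of the receptors, and 7 and 2 had more than 1.

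Sstr2 alone was the commonest pattern, in 106 control (27.2%) and 77 CFA Calca-high neurons (36.3%). Vmn1r85 alone was seen in 42 and 15 neurons, Prokr2 alone in 35 and 23, and Gpr83 alone in 27 and 10. Of the patterns with exactly 2 receptors, the commonest was Gpr83 with Sstr2 in the control library (30 neurons, 7.69%). In the CFA library it was Vmn1r85 with Prokr2 (13 neurons, 6.13%). When neurons with a further receptor were counted too, Gpr83 with Sstr2 was the commonest pair in both libraries. It was then in 44 control and 17 CFA neurons, against 17 and 14 for Vmn1r85 with Prokr2.

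**Figure D2:**
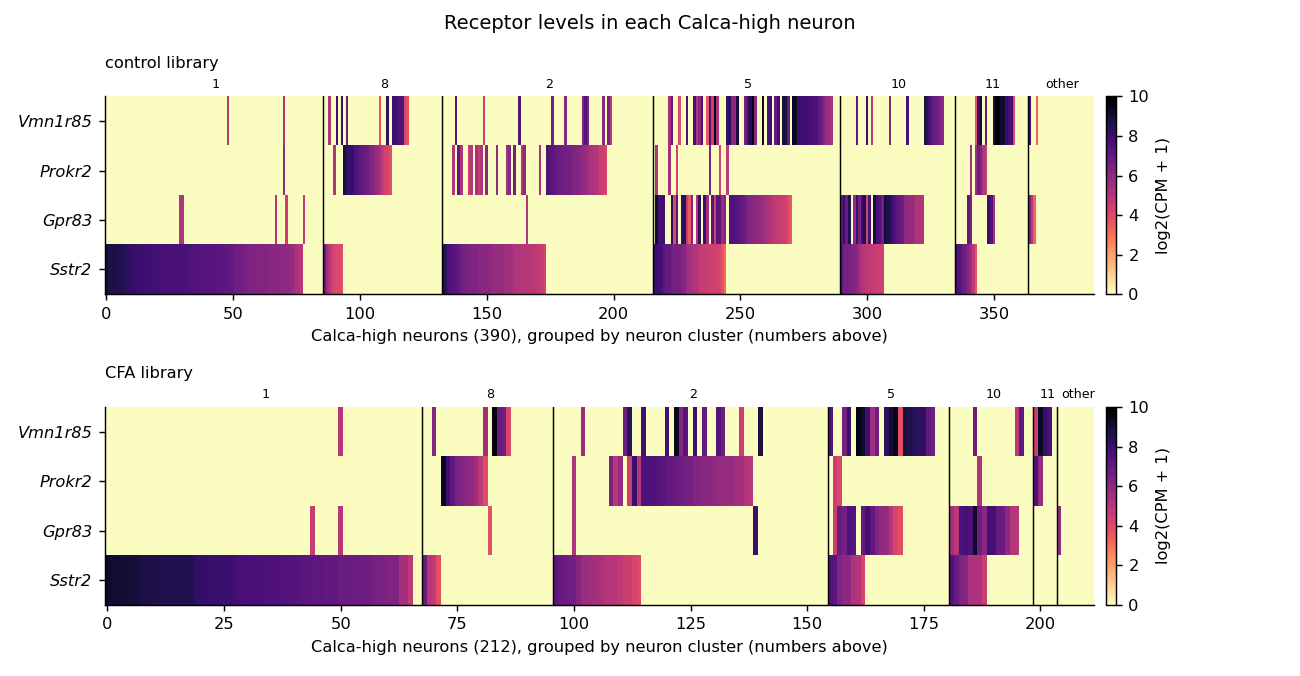
Level of each receptor, as log2(CPM + 1) in colour, in every Calca-high neuron (columns) of the control (390) and CFA (212) library, grouped by neuron cluster (numbers above, clusters 1, 8, 2, 5, 10 and 11 named peptidergic) and sorted by level within a cluster. Sstr2 fills cluster 1 and is also present in others, Prokr2 lies mainly in clusters 8 and 2 and Gpr83 mainly in clusters 5 and 10. Vmn1r85 is most frequent in cluster 5, with positive neurons also in clusters 2, 8, 10 and 11.

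For pairs, the share of neurons with a partner was compared between neurons with and without a receptor. Sstr2 was less frequent in neurons with Vmn1r85 than in those without it. Of the control Calca-high neurons with Vmn1r85, 25 of 101 had Sstr2 (24.8%), against 157 of 289 without Vmn1r85 (54.3%). In the CFA library these were 11 of 47 (23.4%) and 94 of 165 (57.0%). The differences were -29.6 percentage points (-38.9 to -18.7) and -33.6 points (-45.8 to -17.8), and both intervals, which are Newcombe's, lay below 0. The neurons with Vmn1r85 were the deeper ones, with medians of 43621 against 35243 UMIs in the control and of 38522 against 30590 UMIs in the CFA library. At 3 or more UMIs of both, the pair remained in 2 control neurons and 1 CFA neuron.

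Sstr2 was also less frequent in neurons with Prokr2. It was in 25 of 73 control neurons with Prokr2 (34.2%) and in 157 of 317 without it (49.5%), a difference of -15.3 points (-26.6 to -2.61). In the CFA library it was in 10 of 46 (21.7%) and in 95 of 166 (57.2%), a difference of -35.5 points (-47.4 to -19.7). These differences were less firm than those with Vmn1r85. The interval included 0 under 5 of 10 alternative settings in the control and under 2 of 10 in the CFA library. With the Calca limit at 10000 CPM they were -10.6 points (-24.1 to 3.98) and -8.28 points (-29.2 to 15.6), and with neurons thinned to 5000 UMIs -18.0 points (-22.2 to 0.795) and -17.1 points (-25.8 to 7.85). At 3 or more UMIs of both, 1 control neuron and 0 CFA neurons held the pair.

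Prokr2 and Gpr83 were seen together in the fewest neurons. Gpr83 was found in 4 of 73 control neurons with Prokr2 (5.48%) against 88 of 317 without it (27.8%), a difference of -22.3 points (-28.4 to -13.2). Thinned to 5000 UMIs, the control difference was -11.4 points (-15.1 to 7.21). In the CFA library it was in 4 of 46 (8.70%) against 31 of 166 (18.7%), and the interval of that difference (-18.4 to 2.76 points) included 0. All 8 neurons with both also had Sstr2, and no neuron of either library had 3 or more UMIs of both. At that limit 32 control neurons had Prokr2 and 51 had Gpr83 (interval of the difference -18.2 to -3.05 points). In the CFA library only 19 and 18 neurons did, and the interval (-14.3 to 7.82 points) included 0.

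Of the other pairs, Gpr83 tended to be more frequent with Vmn1r85 over all Calca-high neurons. The remaining differences were small, unlike between the libraries or changed with the settings. Gpr83 was found in 31 of 101 control neurons with Vmn1r85 (30.7%) against 21.1% of those without it (difference 9.59 points, -0.0110 to 20.1), and in 13 of 47 (27.7%) against 13.3% in the CFA library (14.3 points, 2.02 to 29.1). With the Calca limit at 10000 CPM, the CFA difference turned to -3.17 points. The difference stayed above 0 under 10 of 10 alternatives in the control and 9 of 10 in the CFA library. Its interval lay above 0 under 6 of 10 and 7 of 10. Within control clusters 5 and 10, however, Gpr83 was less frequent with Vmn1r85 (values below). The share with Sstr2 was 47.8% with Gpr83 against 46.3% without it in the control (1.52 points, -9.90 to 13.05) and 48.6% against 49.7% in the CFA library (-1.15 points, -18.3 to 16.3), intervals wide enough to hold differences of more than 9 points either way. With neurons thinned to 5000 UMIs, however, Sstr2 was in 2 of 42 control neurons with Gpr83 and 64 of 342 without it (-14.0 points, -19.6 to -2.29), and in 1 of 15 against 47 of 193 in the CFA library (-17.7 points, -26.2 to 6.11). Prokr2 was found in 16.8% of control neurons with Vmn1r85 against 19.4% without it (-2.55 points, -10.4 to 6.89) and in 29.8% against 19.4% in the CFA library (10.4 points, -2.60 to 25.5).

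**Figure D3:**
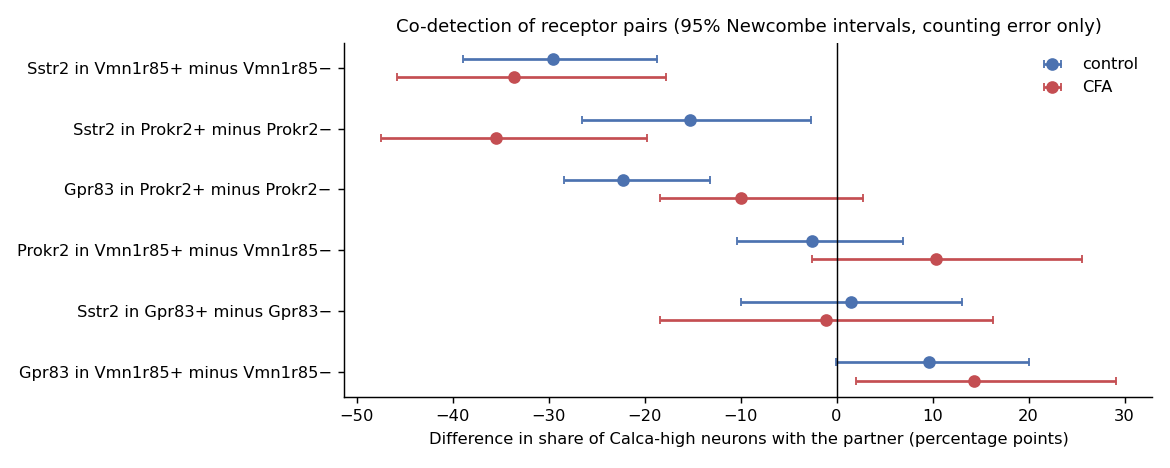
Difference in the share of Calca-high neurons with a partner receptor between neurons with and without a receptor (x axis, percentage points), for the 6 pairs in the control (blue) and CFA (red) library, with Newcombe intervals at 95%. Sstr2 lies below 0 with Vmn1r85 and with Prokr2 in both libraries, and the pair of Prokr2 and Gpr83 lies below 0 with an interval that includes 0 in the CFA library.

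Neurons were then clustered without the 4 receptors and without Calca, which gave 16 clusters, 6 of them named peptidergic from their markers. These 6 held 364 of the 390 control and 204 of the 212 CFA Calca-high neurons. Cluster 1 was led by Dcdc2a, Pde1a and Slc7a3, cluster 2 by Cartpt, Cilp and Tlr4, cluster 5 by Chrna3, Chrnb4, Nos1 and Lig1, cluster 8 by Htr3a, Scgn and Chp2, cluster 10 by Mfap5, Itpr1 and B3gnt6 and cluster 11 by the interferon-induced genes Iigp1, Gbp4 and Ifit3. Cluster 11 held 41 control and 19 CFA neurons, of which 29 and 5 were Calca-high.

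By UMIs, Sstr2 was concentrated in a single cluster. It was found in 79 of 89 control (88.8%, 80.3 to 94.5%) and 67 of 72 CFA neurons (93.1%, 84.5 to 97.7%) of cluster 1, at 168 CPM (154 to 184) and 251 CPM (229 to 274). This cluster held 60.8% of the Sstr2 UMIs of control neurons and 83.7% of those of CFA neurons. Many neurons of other clusters also had Sstr2, at fewer UMIs. In the control it was found in 49.4% of cluster 2, 35.7% of cluster 5 and 37.8% of cluster 10. The shares in the CFA library were 32.2%, 27.6% and 44.4%. The next levels in the control, in clusters 2, 5, 10 and 11, were 34.4, 28.8, 23.1 and 18.8 CPM, and neighbours in that order had overlapping intervals. In the CFA library clusters 10, 2 and 5 followed at 38.5, 20.6 and 17.4 CPM with overlapping intervals, and none of the 19 neurons of cluster 11 had a UMI, which allows a share of up to 15.8%. Cluster 8 was low in both, at 4.59 and 5.69 CPM.

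Prokr2 was split over clusters 8 and 2. It was found in 22 of 56 control (39.3%) and 12 of 35 CFA neurons (34.3%) of cluster 8, at 54.0 CPM (45.4 to 63.6) and 64.0 CPM (51.5 to 78.7). The CFA level there leans on a single neuron, which held 52 of the 90 Prokr2 UMIs. In cluster 2 Prokr2 was found in 41 of 85 (48.2%) and 31 of 59 neurons (52.5%), at 36.2 CPM (29.6 to 43.8) and 53.9 CPM (43.9 to 65.4). The intervals of these clusters did not overlap in the control but did in the CFA library. Clusters 1 and 10 had at most 1.67 CPM in either library, and in the Sstr2-rich cluster 1 it was found in 1 of 89 control and 0 of 72 CFA neurons, the latter allowing up to 4.17%.

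Gpr83 was concentrated in clusters 10 and 5. Cluster 10 had it in 31 of 45 control (68.9%) and 15 of 18 CFA neurons (83.3%), at 126 CPM (109 to 145) and 127 CPM (100 to 159). Cluster 5 had it in 50 of 84 (59.5%) and 14 of 29 neurons (48.3%), at 79.4 CPM (70.9 to 88.7) and 42.2 CPM (31.4 to 55.4), below cluster 10 without overlap in both libraries. Clusters 2 and 8, which hold Prokr2, had Gpr83 in 1 of 85 and 1 of 56 control neurons and in 2 of 59 and 1 of 35 CFA neurons.

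Vmn1r85 was highest in clusters 5 and 11. It was found in 52 of 84 control (61.9%) and 21 of 29 CFA neurons (72.4%) of cluster 5, at 141 CPM (130 to 153) and 234 CPM (207 to 263). In cluster 11 it was found in 15 of 41 (36.6%) and 9 of 19 neurons (47.4%), at 164 CPM (145 to 185) and 285 CPM (241 to 334), and the intervals of these clusters overlapped in both libraries. Clusters 8 and 10 stood at 45.9 and 42.9 CPM in the control and at 19.9 and 10.04 CPM in the CFA library. Cluster 2 stood at 11.8 and 58.1 CPM, and cluster 1 had Vmn1r85 in 2 of 89 and 1 of 72 neurons.

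**Figure D4:**
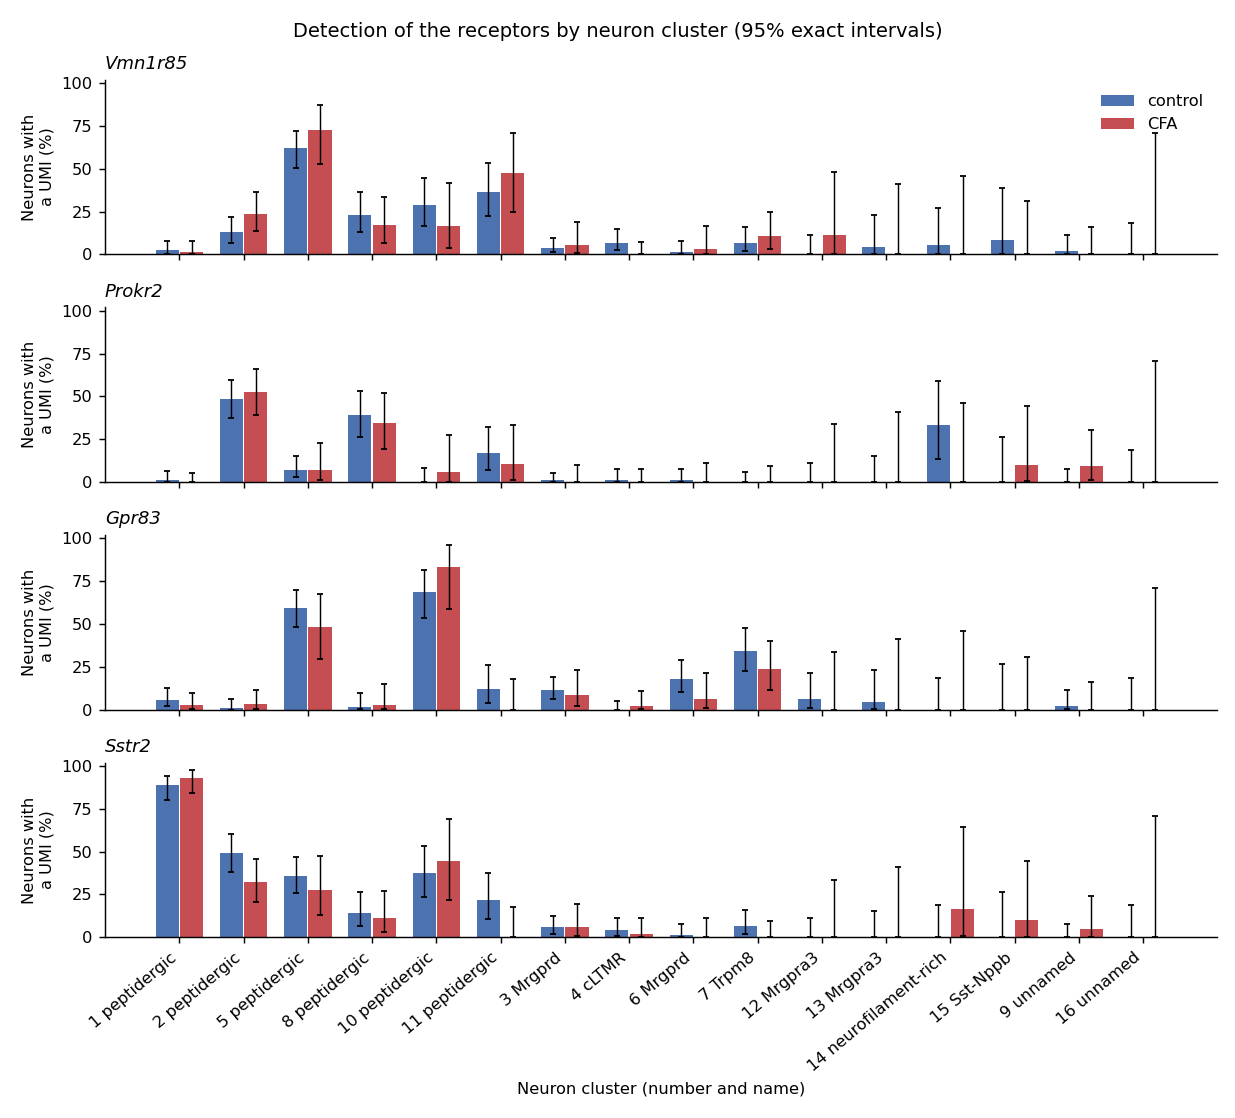
Share of neurons with at least 1 UMI (y axis, percent) of each receptor in the 16 neuron clusters (x axis, number and name), in the control (blue) and CFA (red) library, with exact 95% intervals. Sstr2 reaches 88.8% and 93.1% in cluster 1, Gpr83 68.9% and 83.3% in cluster 10, Vmn1r85 61.9% and 72.4% in cluster 5 and Prokr2 48.2% and 52.5% in cluster 2.

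Within clusters that hold a pair, shares were taken over all neurons of the cluster. No intervals were computed, and several shares rest on few neurons. In control cluster 5, Gpr83 was found in 26 of the 52 neurons with Vmn1r85 (50%) against 75% of those without it, and in cluster 10 in 4 of 13 (30.8%) against 84.4%. In CFA cluster 5 the shares were 47.6% and 50%. In these clusters Gpr83 was thus not more frequent with Vmn1r85, unlike over all Calca-high neurons. Sstr2 was less frequent with Vmn1r85 in control clusters 2 (27.3% against 52.7%), 5 (25% against 53.1%) and 10 (23.1% against 43.8%), and in CFA cluster 2 (21.4% against 35.6%). Sstr2 was more frequent with Gpr83 in control clusters 5 (46% against 20.6%) and 10 (48.4% against 14.3%). In cluster 2, Sstr2 was found in 39.0% of control and 22.6% of CFA neurons with Prokr2, against 59.1% and 42.9% of those without it. In the same cluster 11 of 14 CFA neurons with Vmn1r85 had Prokr2 (78.6% against 44.4%), and 6 of 11 control neurons did (54.5% against 47.3%). In control cluster 8 it was the other way round, with Prokr2 in 3 of 13 neurons with Vmn1r85 (23.1%) against 44.2% of those without it.

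Among the neuron groups poor in Calca, Gpr83 had the most positive neurons. It was found in 21 of 61 control (34.4%, 22.7 to 47.7%) and 9 of 38 CFA neurons (23.7%, 11.4 to 40.2%) of the Trpm8 cluster, the cold-sensing neurons, at 13.2 and 14.9 CPM. The clusters named for Mrgprd, a receptor of non-peptidergic nociceptors, had it in 12 of 104 (11.5%) and 13 of 72 control neurons (18.1%), and in 3 of 35 (8.57%) and 2 of 31 CFA neurons (6.45%). Prokr2 was found in 6 of the 18 control neurofilament-rich neurons (33.3%, 13.3 to 59.0%) at 11.6 CPM, and in 0 of the 6 CFA neurons of this cluster, which allows a share of up to 50%. For Vmn1r85, 107 of the 134 control UMIs and 119 of the 133 CFA UMIs outside the Calca-high neurons were in 7 neurons of each library that lay in peptidergic clusters. Counting all neurons, the 6 peptidergic clusters held 96.9% and 97.6% of the Vmn1r85 UMIs, 96.1% and 98.6% of the Prokr2 UMIs, 87.1% and 84.1% of the Gpr83 UMIs and 98.2% and 99.0% of the Sstr2 UMIs of control and CFA neurons.

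The libraries differed in the level of 3 of the receptors, while the shares of positive neurons had overlapping intervals. Over all Calca-high neurons, the level of Sstr2 went from 47.6 CPM (44.3 to 51.1) for control to 78.8 CPM (72.6 to 85.5) for CFA, which is 0.73 (0.57 to 0.88) as the log2 of CFA over control. Prokr2 stood at 15.2 CPM (13.4 to 17.3) and 27.5 CPM (23.9 to 31.6), a log2 ratio of 0.85 (0.58 to 1.13). Gpr83 stood at 33.1 CPM (30.3 to 36.02) and 18.0 CPM (15.1 to 21.4), a log2 ratio of -0.87 (-1.16 to -0.60). Vmn1r85 stood at 60.1 CPM (56.3 to 64.0) and 62.4 CPM (56.8 to 68.4), a log2 ratio of 0.06 (-0.11 to 0.22). Thus 3 of the 4 receptors lay past a log2 ratio of 0.5, Sstr2 and Prokr2 above and Gpr83 below, while 9.02% of the 11048 genes with at least 100 UMIs did (3.65% above and 5.37% below). With 1 library per condition these ratios have no replicate check and no test was made. In bulk sums of this kind, fewer positive neurons and fewer UMIs per neuron both lower the CPM. Within positive neurons alone, Sstr2 stood at a log2 ratio of 0.67 (0.52 to 0.83) and Prokr2 at 0.49 (0.22 to 0.77). Gpr83 stood at -0.28 (-0.56 to -0.0017) and Vmn1r85 at 0.28 (0.12 to 0.44). In the other neurons, where 8.59% of 11649 genes lay past 0.5 (4.4% above and 4.2% below), Vmn1r85 stood at 1.26 (0.90 to 1.61), on 134 control and 133 CFA UMIs. Of these UMIs, a single neuron held 49 in the control and another held 50 in the CFA library. For the other receptors in this class the intervals included 0, with log2 ratios of 0.59 for Sstr2, -0.54 for Gpr83 and -0.96 for Prokr2 on at most 84 UMIs per library.

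Other measurements differed between the libraries in the same neurons, and their part in these ratios was not tested beyond the values given here. Cluster 1, rich in Sstr2, made up 22.1% of control and 32.1% of CFA Calca-high neurons, cluster 5 made up 19.0% and 12.3%, and cluster 10 made up 11.5% and 8.49%. With the same weight for each cluster in both libraries, the log2 ratios were 0.31 for Sstr2, 0.67 for Prokr2, -0.43 for Gpr83 and 0.60 for Vmn1r85. Calca, which set the limit, was itself lower in the CFA library (log2 ratio -0.25, -0.27 to -0.24), and 271 of 390 control but 90 of 212 CFA neurons reached 10000 CPM. With that limit the log2 ratio of Sstr2 was 0.05, that of Prokr2 0.39, that of Gpr83 -0.52 and that of Vmn1r85 0.29. A few neurons carried much of the signal, since the 5 neurons with most UMIs held 50.2% of the Prokr2, 40.6% of the Gpr83, 39.3% of the Vmn1r85 and 22.4% of the Sstr2 UMIs of the CFA library. Without these 5 neurons in each library the log2 ratios were 0.37 for Prokr2, -1.21 for Gpr83, -0.26 for Vmn1r85 and 0.55 for Sstr2.

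Within clusters, taking all their neurons, the receptors did not move alike. Sstr2 was higher in the CFA library in cluster 1 (log2 ratio 0.58, 0.39 to 0.76) but lower in cluster 2 (-0.74, -1.31 to -0.19) and cluster 5 (-0.73, -1.48 to -0.05). Gpr83 was lower in cluster 5 (-0.91, -1.37 to -0.48) and close to the control in cluster 10 (0.01, -0.39 to 0.40). Prokr2 had log2 ratios of 0.58 (0.17 to 0.98) in cluster 2 and 0.25 (-0.15 to 0.64) in cluster 8. In cluster 8 a single CFA neuron held 52 of the 90 CFA UMIs. Vmn1r85 was higher in clusters 2 (2.30, 1.73 to 2.90), 5 (0.73, 0.52 to 0.94) and 11 (0.79, 0.50 to 1.09) and lower in clusters 8 (-1.21, -1.85 to -0.60) and 10 (-2.10, -3.59 to -0.90). The last of these rests on 67 control and 6 CFA UMIs. In cluster 11 the neurons themselves differed in Calca between the libraries, as 29 of 41 control but 5 of 19 CFA neurons were Calca-high, with a median Calca of 10727 and 402 CPM. At a clustering resolution of 2, the cluster led by interferon-induced genes had 22 control and 2 CFA neurons.

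**Figure D5:**
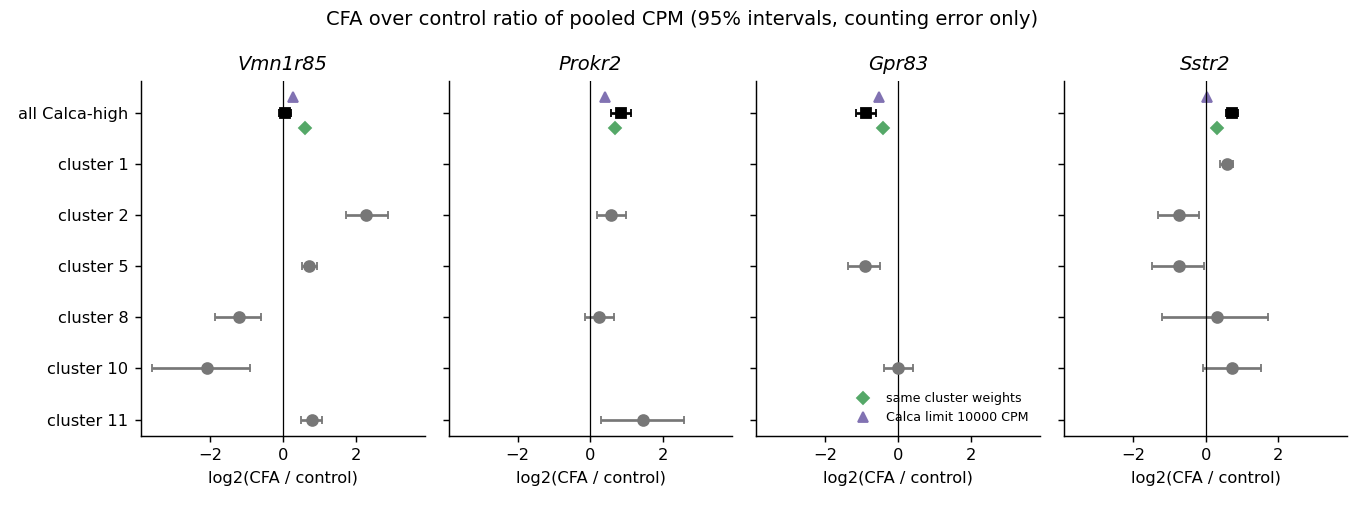
Log2 ratio of pooled CPM in the CFA over the control library (x axis) for each receptor, in all Calca-high neurons (black squares) and in all neurons of the 6 peptidergic clusters (grey circles), with exact intervals at 95%. Green diamonds give the ratio with the same cluster weights in both libraries and purple triangles that with a Calca limit of 10000 CPM, where Sstr2 falls from 0.73 to 0.05, and clusters with fewer than 4 UMIs in a library are not drawn.

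Genes that went with each receptor were then listed among Calca-high neurons, and some were shared between receptors. They were compared as CPM in receptor-positive over receptor-negative neurons, and counted where the log2 ratio passed 1 in both libraries. Since neurons were sorted by a measured value, this is a description. Several of the genes named below also lead clusters rich in the receptor. Among them are Dcdc2a in cluster 1, Chp2 in cluster 8, Lig1 and Nos1 in cluster 5 and Mfap5 in cluster 10. The ratios are over all Calca-high neurons, and the part of the clusters in them was not tested. With Vmn1r85, 33 of 3815 genes were higher (0.865%) and 81 of 7317 lower (1.11%). With Prokr2 these were 31 (0.8%) and 74 genes (1.01%), with Gpr83 39 (1.36%) and 164 genes (2.15%), and with Sstr2 56 (0.962%) and 99 genes (1.61%).

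Vmn1r85-positive neurons were marked above all by Lig1, which encodes a DNA ligase. It stood at 471 CPM with Vmn1r85 and 37.2 CPM without it in the control library and at 556 and 36.6 CPM in the CFA library, log2 ratios of 3.66 (3.51 to 3.82) and 3.93 (3.71 to 4.15), and had a UMI in 96.0% and 97.9% of the positive neurons. Slc24a2, an ion exchanger, followed with log2 ratios of 1.60 and 1.87, Lpar1, a receptor for lysophosphatidic acid, with 1.74 and 1.59, Nos1, the neuronal nitric oxide synthase, with 1.58 and 1.88, and Fgg, the fibrinogen gamma chain, with 1.51 and 1.77. Dcdc2a was lowest, at 2.08 CPM with Vmn1r85 and 46.1 CPM without it in the control (log2 ratio -4.47) and at -6.03 in the CFA library, followed by Pcp4 (-3.66 and -3.89) and Gpr139 (-3.34 and -3.43).

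Sstr2-positive neurons showed the reverse for the first of these genes. Dcdc2a stood at 66.8 CPM with Sstr2 and 4.81 CPM without it in the control library and at 105 and 3.83 CPM in the CFA library, log2 ratios of 3.80 (3.34 to 4.29) and 4.78 (4.04 to 5.63), and Pcp4 had log2 ratios of 2.31 and 2.89. Plxdc1 (2.40 and 2.67), the orphan receptor Gpr26 (2.22 and 3.20) and Marcksl1 (2.05 and 2.03) were the others highest. Lowest were Mrgpra3, the itch receptor, with 7 UMIs in positive and 1412 UMIs in negative control neurons and 0 and 445 UMIs in the CFA library, Gda, a guanine deaminase (-7.93 and -7.30), and Tmem45b (-5.20 and -5.66).

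Prokr2-positive neurons were highest in Chp2, a calcium-binding protein, at 111 CPM with Prokr2 and 8.58 CPM without it in the control library and at 229 and 22.0 CPM in the CFA library, log2 ratios of 3.70 (3.38 to 4.02) and 3.38 (3.08 to 3.68). Trappc3l (2.84 and 2.95), the surface protein Thy1 (2.57 and 2.77), the protease inhibitor Serpinb1a (2.12 and 3.18) and Ly6h (2.05 and 2.79) came next. Lowest were Mrgpra3, with 4 and 1415 UMIs in positive and negative control neurons and 0 and 445 UMIs in the CFA library, Gda, with 3 and 593 and with 0 and 180 UMIs, and Tmem45b (-4.80 and -5.34), which are the 3 genes that were lowest with Sstr2 too. Mrgpra3 and Gda are leading genes of neuron cluster 13, with 22 control and 7 CFA neurons. None of these neurons had Prokr2 or Sstr2, and the other 2 receptors were nearly absent too. Vmn1r85 was in 1 control neuron of this cluster and Gpr83 in 1. The part of this cluster in the ratios was not tested.

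Gpr83-positive neurons showed the opposite for Chp2 and Thy1. Chp2 stood at 1.38 CPM with Gpr83 and 39.8 CPM without it in the control library (log2 ratio -4.85) and at -4.93 in the CFA library, Thy1 at -4.04 and -6.29 and Plp2 at -4.47 and -4.49. Highest were Gabra3, a subunit of the GABA-A receptor, at 175 CPM with Gpr83 in either library against 22.3 and 12.6 CPM without it (log2 ratios 2.97, 2.76 to 3.18, and 3.79, 3.41 to 4.19), Mfap5, a microfibril protein (2.78 and 3.40), Fgg (2.52 and 2.50), the kinase Stk32a (2.72 and 2.37) and Nos1 (2.40 and 2.33). Fgg and Nos1 were thus among the highest genes of both Vmn1r85-positive and Gpr83-positive neurons.

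Of the G proteins and effectors that such receptors act through, 17 of 18 listed genes were in the files and 9 to 11 per receptor had enough UMIs. Gna14, a Gq-class alpha subunit, was the one of these with enough UMIs that passed 1. It was higher with Gpr83 (199 against 99.2 CPM in the control, log2 ratio 1.00, and 156 against 63.9 CPM in the CFA library, 1.29). It was lower with Prokr2 (-1.55 and -1.90) and with Sstr2 (-1.46 and -1.53), and had log2 ratios of 0.88 and 0.57 with Vmn1r85. Kcnj3 had too few UMIs to be counted, with 78 control and 36 CFA UMIs in Vmn1r85-positive neurons. It stood at 1.01 (0.55 to 1.46) and 1.03 (0.37 to 1.67) with Vmn1r85. The median log2 ratio of the list lay between -0.11 and 0.07 for all 4 receptors in both libraries, and that of all genes tested between 0.00 and 0.04. Gnao1, Gnai2, Gnaz and Gnai1, subunits of the inhibitory class, were found in at least 88.2% of the Calca-high neurons of either library.

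Of 20 features of peptidergic neurons, 13 or 14 per receptor had enough UMIs. With Gpr83, Gfra3, a receptor component for artemin, was higher (857 against 424 CPM in the control, log2 ratio 1.01, and 1.25 in the CFA library), as was the irritant channel Trpa1 (1198 against 289 CPM, 2.05, and 1.78), and the receptor tyrosine kinase Kit was lower (61.0 against 199 CPM, -1.70, and -1.34). With Sstr2, the vasopressin receptor Avpr1a was higher (43.2 against 20.9 CPM, 1.05, and 1.73). None of those with enough UMIs passed 1 with Vmn1r85 or Prokr2 in both libraries, although Kit with Prokr2 stood at 1.01 and 0.69. Among those with fewer UMIs, Adra2a stood at 1.73 (1.33 to 2.14) and 1.21 (0.44 to 1.96) with Vmn1r85. It had 127 control and 28 CFA UMIs in the positive neurons. Bmpr1b stood at 1.56 (-1.21 to 4.13) and 2.10 (0.02 to 4.37) with Prokr2, on 3 and 6 UMIs. Tac1 had log2 ratios of 0.65 and 0.82 with Gpr83, 0.33 and 0.42 with Vmn1r85, 0.24 and 0.30 with Sstr2 and -0.19 and -0.20 with Prokr2.

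The ligands of the receptors were themselves measured. Pcsk1n, the precursor of the peptides assigned to Gpr83, was abundant in both classes, at 1143 and 1089 CPM in Calca-high and 728 and 740 CPM in other neurons. Sst, the gene of somatostatin, stood at 1.44 and 0.407 CPM in Calca-high neurons and at 61.1 and 104 CPM in other neurons, where the Sst-Nppb cluster of itch neurons is led by it. Cort, the gene of a related peptide, stayed at or below 0.271 CPM in both classes. Prok1 and Prok2, the prokineticins, were each found in fewer than 1% of the cells of either class, and Prok2 had 0 UMIs in the Calca-high neurons of both libraries.

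Related receptors were spread differently. Prokr1, the other prokineticin receptor, was found in 13 of 390 control (3.33%) and 5 of 212 CFA Calca-high neurons (2.36%), against 41.9% and 31.1% of other neurons. It stood at 27.1 and 21.6 CPM in Mrgprd cluster 3 and at 26.6 and 24.9 CPM in the cluster of C-fibre low-threshold mechanoreceptors (cLTMR), and was found in at most 3.57% of the neurons of any peptidergic cluster. Prokr1 and Prokr2 were together in 1 of the 73 control and 0 of the 46 CFA Calca-high neurons with Prokr2. Sstr1, another somatostatin receptor, was found in 15.6% of control and 13.2% of CFA Calca-high neurons. In the Sstr2-rich cluster 1 it was in 0 of 89 control and 2 of 72 CFA neurons, whereas cluster 10 had it in 18 of 45 and 3 of 18 and cluster 2 in 17 of 85 and 13 of 59. Of neurons with Sstr2, 12.1% of control and 8.57% of CFA neurons had Sstr1, against 18.8% and 17.8% of those without it. Sstr3, Sstr4 and Sstr5 had at most 8 UMIs in the Calca-high neurons of either library.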

How the data were processed

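The authors deposited a table of UMI counts per gene and cell for each library, made with the BD Rhapsody whole transcriptome assay and its pipeline, which corrects UMI errors and calls cells. The submitters' processing notes name fastp and GRCm38, and pipeline version and annotation are not given in the sources used here. Deposited depth was 48916096 UMIs in 7298 control cells and 22096268 UMIs in 4080 CFA cells.

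Cells were filtered as stated above and clustered with Seurat 5.3.0 in R 4.3.3 (2000 variable genes, 20 principal components, resolution 0.8 for all cells and 1 for neurons), without the 4 receptors and Calca, and named from fixed marker lists. Counts were summed per library and class. Shares have Clopper-Pearson, CPM exact Poisson, ratios conditional exact binomial and pair differences Newcombe intervals, computed with SciPy 1.17.1 at 95%, the upper limit given for a count of 0 is 3 counts of the total, and the scripts were tested on simulated data. With 1 library per condition no test was made. Doublets were kept, as Scrublet marked 107 control and 4 CFA cells by its own threshold, and a score above 0.25 marked 2 control and 1 CFA Calca-high neurons, which were left out as an alternative. Named companion genes are the 5 highest and 3 lowest by the log2 ratio nearer to 0 of both libraries, with at least 100 counts in the positive (lowest: negative) neurons, the highest also found in at least 50% of positive neurons, without predicted and mitochondrially encoded genes. The receptors and all lists were chosen with earlier results of these data known. Protein sequences were not used here.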

Additional observations from a re-analysis of the deposited data

How the results depend on the processing

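No paired analysis was possible because each condition has 1 library, and for the same reason no replicate could be left out. Values and alternatives were compared for the Calca-high neurons, companion genes and clusters. Of these, 225 stayed within their interval or count limit, 62 moved outside it and 1 was counted as turned in direction. The cause was not tested. Values near 0 also changed sign without being counted as turned. The difference of Sstr2 with Gpr83 kept its sign under 8 of 10 alternatives in the control and 7 of 10 in the CFA library. The log2 CFA ratio of Vmn1r85 (0.06) also fell below 0 under 1 alternative given below. In the order Vmn1r85, Prokr2, Gpr83, Sstr2 and 2 or more receptors, the shares of control neurons were 20.3, 12.8, 15.6, 33.8 and 14.4% at 2 UMIs, 18.5, 8.21, 13.1, 25.1 and 7.44% at 3 UMIs, and 15.6, 4.43, 10.9, 17.2 and 3.39% when thinned to 5000 UMIs. CFA shares were 15.6% (Prokr2), 9.91% (Gpr83), 34.9% (Sstr2) and 9.43% (2 or more) at 2 UMIs, and, in the full order, 16.5, 8.96, 8.49, 30.2 and 7.08% at 3 UMIs and 14.9, 6.73, 7.21, 23.1 and 3.37% when thinned. Thinning also moved the control differences of Sstr2 with Vmn1r85 to -14.4, of Gpr83 with Prokr2 to -11.4 and of Sstr2 with Gpr83 to -14.0 points, and the CFA difference of Sstr2 with Prokr2 to -17.1 points. With the Calca limit at 10000 CPM, 2 or more receptors were in 33.2% of control and 33.3% of CFA neurons, Vmn1r85 in 30% and Gpr83 in 24.4% of CFA neurons, the CFA difference of Sstr2 with Prokr2 was -8.28 points and that of Gpr83 with Vmn1r85 turned to -3.17 points. That limit gave log2 CFA ratios of 0.29 (Vmn1r85), 0.39 (Prokr2), -0.52 (Gpr83) and 0.0512 (Sstr2), and a limit of 2500 CPM gave 0.27 for Vmn1r85. Equal weight per neuron gave 0.49 for Prokr2. The following were chosen after seeing the data. The same weight per cluster gave 0.60 (Vmn1r85), -0.43 (Gpr83) and 0.31 (Sstr2), and leaving out the 5 neurons richest in the receptor gave -0.26 (Vmn1r85), 0.37 (Prokr2), -1.21 (Gpr83) and 0.55 (Sstr2). Companion genes numbered 77 (Vmn1r85), 62 (Prokr2), 98 (Gpr83) and 116 (Sstr2) at 30 counts, and 19 (Prokr2) and 17 (Gpr83) with positives at 3 UMIs. The highest cluster level was 125 (Vmn1r85), 87.1 (Gpr83) and 178 CPM (Sstr2) at resolution 0.5, and 296 (Vmn1r85) and 83.3 CPM (Prokr2) at resolution 2. The differences of Sstr2 with Vmn1r85, Sstr2 with Prokr2 and Gpr83 with Prokr2 stayed below 0 under all 10 alternatives in both libraries, which concerns the differences themselves. Their intervals stayed below 0 under all 10 for Sstr2 with Vmn1r85 in both libraries, under 5 (control) and 8 (CFA) for Sstr2 with Prokr2 and under 9 and 1 for Gpr83 with Prokr2. Leaving the cluster led by neuronal genes out of the non-neuronal cells, also chosen after seeing the data, kept all 8 shares there within their intervals.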

Other observations

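Of 173 listed genes of the Vmn1r family, 12 had 10 or more UMIs in neurons, and Vmn1r85 gave 29.9% of the 5634 family UMIs there. Vmn1r13 gave 3345 UMIs in neurons and was broad, found in 337 of 390 control and 146 of 212 CFA Calca-high neurons. It was not confined to them, being found also in 370 control and 149 CFA other neurons and in 452 and 144 non-neuronal cells. Vmn1r89, which lies within 500 kb of Vmn1r85, was found in 23 control and 10 CFA Calca-high neurons, and 22 and 10 of these also had Vmn1r85. Whether the 2 genes share reads was not tested, so the Vmn1r89 values are uncertain.

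No receptor of the 4 was found in 70 control and 38 CFA Calca-high neurons. Of these, 19 control and 7 CFA neurons lay in cluster 13, led by Mrgpra3, Crip1 and Gda, where 21 of 22 control and 7 of 7 CFA neurons were Calca-high. Clusters 2 and 8 held 16 and 13 of the others in the control library and 14 and 9 in the CFA library.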
